A study of Mus musculus with 2 samples.

Results

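The miR-181 family comprises 6 of the 2202 annotated microRNA genes counted in the mouse adrenal gland: Mir181a-1 and Mir181b-1 on chromosome 1, Mir181a-2 and Mir181b-2 on chromosome 2, and Mir181c and Mir181d on chromosome 8. The genes were taken by name from the GENCODE M21 annotation, and all 6 were found in both count tables. MicroRNA-seq, the sequencing of size-selected small RNA, was performed on adrenal glands of 2 female B6CASTF1/J mice aged 10 days, first-generation hybrids of the C57BL/6J and CAST/EiJ strains. The 2 libraries form a single group, labelled biological replicates 1 and 2, and the labels number the animals 3 and 4 but give both the same donor entry. No treatment or mutant is included, so the data allow levels, and differences between the libraries, to be described. Each animal gave 1 library, so what differs between animals cannot be told apart from what differs between preparations.

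A microRNA gene is transcribed into a long primary RNA, from which a hairpin is cut. Each arm of the hairpin, 5p or 3p, can give a mature RNA of about the same length, and the seed, bases 2 to 8 of the mature RNA, pairs with target messages. The miR-181 microRNAs are best known from lymphocyte development, where miR-181a tunes the sensitivity of the T-cell receptor, and they are also found in brain and in endothelial cells, where miR-181b is known to dampen NF-kappaB signalling. The 5p arm is the better known product of these hairpins.

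The mature sequences below, from RefSeq (GRCm38.p6), are shown because they determine both the targets of the family and which reads can be assigned to a gene. Capitals mark the seed.
mmu-miR-181a-5p: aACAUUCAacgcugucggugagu
mmu-miR-181b-5p: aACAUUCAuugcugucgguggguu
mmu-miR-181c-5p: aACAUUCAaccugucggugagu
mmu-miR-181d-5p: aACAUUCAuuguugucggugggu
mmu-miR-181a-1-3p: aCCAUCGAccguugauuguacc
mmu-miR-181a-2-3p: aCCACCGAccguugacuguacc
mmu-miR-181b-1-3p: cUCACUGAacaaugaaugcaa
mmu-miR-181b-2-3p: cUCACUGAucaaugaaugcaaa
mmu-miR-181c-3p: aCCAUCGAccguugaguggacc
mmu-miR-181d-3p: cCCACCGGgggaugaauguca

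All 6 genes carried the seed ACAUUCA on the 5p arm, and no other gene among the 1058 with a mature sequence in the RefSeq table did. The 6 genes gave only 4 distinct 5p sequences. Mir181a-1 and Mir181a-2 share miR-181a-5p, and Mir181b-1 and Mir181b-2 share miR-181b-5p, whereas Mir181c and Mir181d each have a 5p sequence of their own. The sequences fall into an a and c type and a b and d type. Between miR-181b-5p and miR-181d-5p the only substitution was C12U, counted from 1 at the 5′ end, beside 1 base at the 3′ end. MiR-181a-5p and miR-181c-5p were 1 edit apart, whereas miR-181c-5p and miR-181d-5p, which lie in the same cluster, were 5 edits apart.

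The 3p arms were all different, with 6 distinct sequences and 4 seeds. MiR-181a-1-3p and miR-181c-3p shared the seed CCAUCGA, and miR-181b-1-3p and miR-181b-2-3p shared the seed UCACUGA. The copies of miR-181a-3p differed by U5C and U16C, and those of miR-181b-3p by A9U and by 1 base at the 3′ end.

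The files count reads per hairpin gene and leave out reads that align to several places. The hairpins of the copied genes, from RefSeq (GRCm38.p6, plus strand), are shown to locate the stretch that the copies share around the 5p arm, given in capitals. They lie at chr1:137966455-137966541, chr2:38852735-38852810, chr1:137966639-137966718 and chr2:38853830-38853918 in the order printed.
Mir181a-1: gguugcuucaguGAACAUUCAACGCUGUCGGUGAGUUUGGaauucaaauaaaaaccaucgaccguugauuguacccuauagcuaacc
Mir181a-2: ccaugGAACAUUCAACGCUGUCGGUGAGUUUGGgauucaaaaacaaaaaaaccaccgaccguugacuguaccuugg
Mir181b-1: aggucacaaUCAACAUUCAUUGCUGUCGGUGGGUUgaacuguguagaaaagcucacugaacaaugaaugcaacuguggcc
Mir181b-2: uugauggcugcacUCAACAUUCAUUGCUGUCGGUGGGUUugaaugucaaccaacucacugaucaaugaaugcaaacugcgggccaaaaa

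The shared stretch was 28 bases long in the Mir181a copies and 26 bases long in the Mir181b copies. It ran 4 bases past the 3′ end of miR-181a-5p, but 0 bases past the 3′ end of miR-181b-5p, where the next base already differs between the copies. A read of the whole miR-181a-5p or miR-181b-5p therefore matches 2 hairpins, and a read of any of the 3p arms, or of either arm of Mir181c or Mir181d, matches 1 hairpin. Of the 22-base windows along each hairpin, 59 of 66 in Mir181a-1, 48 of 55 in Mir181a-2, 54 of 59 in Mir181b-1 and 63 of 68 in Mir181b-2 were found in no other annotated hairpin. In Mir181c all 68 windows, and in Mir181d all 51, were found in no other. The search covered annotated hairpins on both strands and not the whole genome. Outside the shared stretch the copies have diverged, with 71.4% identity over the aligned hairpins of Mir181a-1 and Mir181a-2 and 72.8% over those of Mir181b-1 and Mir181b-2.

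**Figure D1:**
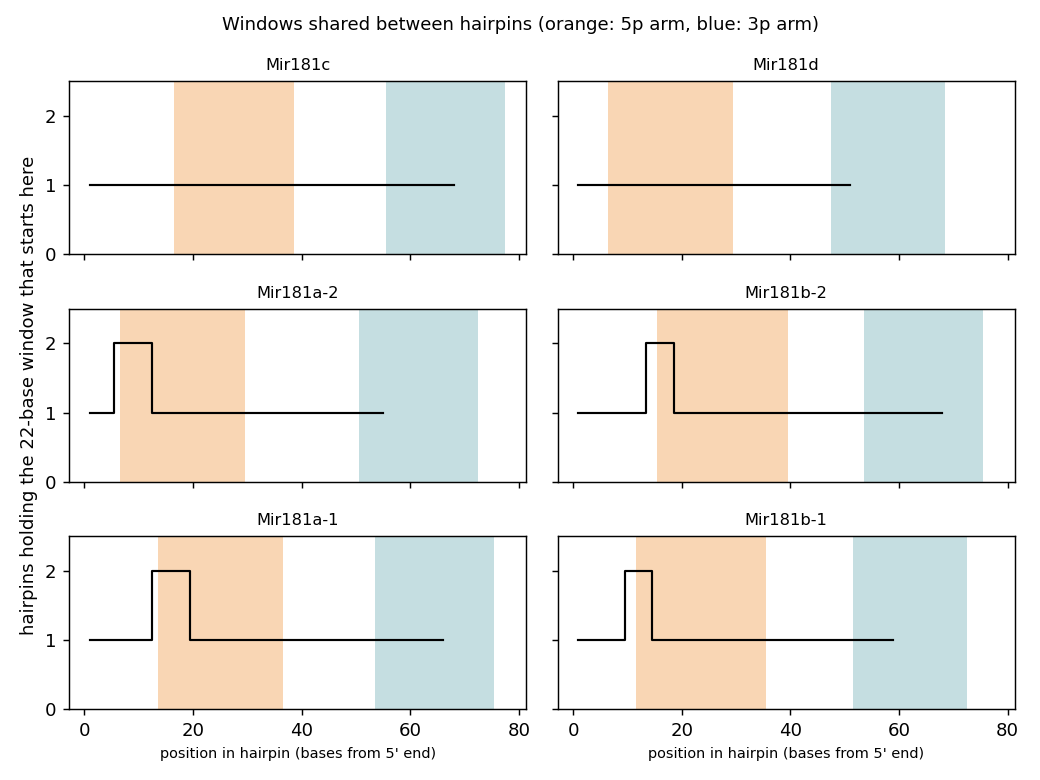
Number of annotated hairpins (y axis) that hold the 22-base window starting at each position of the hairpin (x axis, bases from its 5′ end), for the 6 genes, with the 5p arm in orange and the 3p arm in blue. Windows at the 5p arm of the Mir181a and Mir181b copies lie in 2 hairpins, whereas every window of Mir181c and Mir181d lies in 1.

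The counts of the 4 copied genes thus lack reads that lie wholly within the shared stretch, and give no total for miR-181a or miR-181b. A 5p read that runs past the shared stretch could still be counted. Reads with several alignments made up 25.0% of all reads in replicate 1 and 27.2% in replicate 2, and the tables do not show how many of them came from this family. Which arm the counted reads came from is not recorded in the tables either. The annotated mature arms are 21 to 24 bases long in every member, so levels were compared without scaling to length. The tables hold no read lengths.

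Levels are given as CPM, a gene's reads divided by the reads assigned to all microRNA genes and put on a common scale. The totals were 2023410 assigned reads in replicate 1 and 3208821 in replicate 2. A single read equalled 0.494 CPM (replicate 1) or 0.312 CPM (replicate 2). The tissue label was set beside microRNAs of known cell types. Of the neuroendocrine microRNAs, Mir375 stood at 24805 and 31924 CPM in replicates 1 and 2, whereas Mir137 reached 869 and 774 CPM and Mir7b 2333 and 2081 CPM. MicroRNAs of other organs were present too, among them Mir122 of liver at 26733 and 9284 CPM and Mir206 of striated muscle. The 3 copies of the neuronal Mir124a were at 0.312 CPM or less, and these copies are known to share their mature sequence. In a whole gland, fewer cells of a type and less RNA per cell cannot be told apart.

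The chromosome 8 cluster held most of the counted reads of the family. Mir181c and Mir181d together summed to 2891 CPM (replicate 1) and 3124 CPM (replicate 2), a mean of 3007 ± 165 CPM (SD, n = 2). The chromosome 2 cluster stood at 696 and 1404 CPM (mean 1050 ± 500.3), and the chromosome 1 cluster at 210.0 and 194 CPM (mean 202 ± 11.5). The ranges of the 3 clusters over the 2 libraries did not overlap, so the order was the same in both animals.

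The chromosome 8 cluster exceeded the chromosome 2 cluster 4.15-fold in replicate 1 and 2.23-fold in replicate 2, and the chromosome 1 cluster 13.8-fold and 16.1-fold. It made up 76.1% and 66.2% of the family's counted reads. The 2 clusters with copied genes lack reads within the shared stretch and the chromosome 8 cluster does not, so this order describes counted reads and not the output of the loci. The family as a whole took 0.380% and 0.472% of assigned reads, or 3797 and 4722 CPM.

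**Figure D2:**
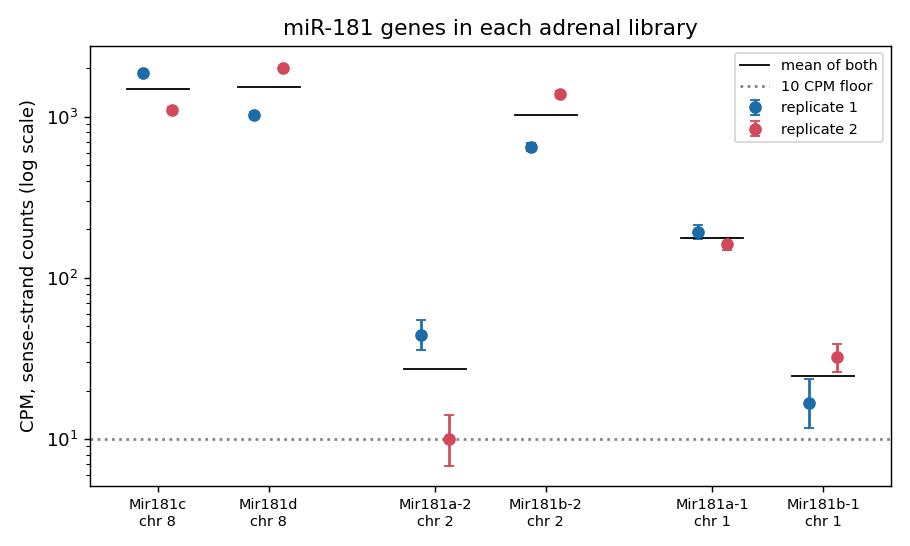
Level of each miR-181 gene (y axis, CPM of sense-strand counts, log scale) in replicates 1 and 2, grouped by chromosome, with exact 95% intervals for counting error and the mean as a line. Mir181c, Mir181d and Mir181b-2 sit between 652 and 2018 CPM, and Mir181a-2 and Mir181b-1 between 9.97 and 44.5 CPM.

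Mir181d and Mir181c lie 85 bases apart on the minus strand of chromosome 8 (84178716 to 84178787 and 84178873 to 84178961, mm10), in an intron of a transcript of Nanos3, a gene known for germ cell development, on the same strand. Mir181d had 1025 CPM in replicate 1 (982 to 1071 by exact 95% interval, as for the levels below) and 2018 CPM in replicate 2 (1969 to 2068), a mean of 1522 ± 702 CPM (SD, n = 2) and rank 76 of the 2202 genes. Mir181c had 1865 CPM in replicate 1 (1806 to 1926) and 1106 CPM in replicate 2 (1070 to 1143), a mean of 1486 ± 537 CPM and rank 79. Although their means were nearly equal, Mir181c was the higher of the pair in replicate 1 and Mir181d in replicate 2. Their ranges overlapped, so neither was the higher beyond the spread between libraries.

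Mir181a-2 and Mir181b-2 lie 1019 bases apart on the plus strand of chromosome 2, in introns of Nr6a1, an orphan nuclear receptor gene transcribed from the opposite strand. Mir181b-2 had 652 CPM in replicate 1 (617 to 688) and 1394 CPM in replicate 2 (1353 to 1435), a mean of 1023 ± 525 CPM and rank 93. Mir181a-2 had 44.5 CPM in replicate 1 (35.8 to 54.7) and 9.97 CPM in replicate 2 (6.82 to 14.1), from 90 and 32 reads, a mean of 27.2 ± 24.4 CPM and rank 270. Mir181b-2 was far above its neighbour in both libraries, and its range overlapped that of Mir181c, the next gene up in the order of means.

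Mir181a-1 and Mir181b-1 lie 97 bases apart on the plus strand of chromosome 1. Both overlap an exon of the long noncoding RNA A430106G13Rik and lie in an intron of the processed transcript Gm4258, on the same strand. Mir181a-1 had 193 CPM in replicate 1 (175 to 213) and 162 CPM in replicate 2 (148 to 176), a mean of 177 ± 22.3 CPM and rank 178. Mir181b-1 had 16.8 CPM in replicate 1 (11.6 to 23.5) and 32.1 CPM in replicate 2 (26.2 to 38.9), from 34 and 103 reads, a mean of 24.5 ± 10.8 CPM and rank 278. By counted reads the a gene of this cluster was the higher in both libraries, unlike the chromosome 2 cluster, where the b gene was. The shared stretch runs 4 bases past miR-181a-5p and 0 bases past miR-181b-5p. In both clusters the a and b genes can therefore lose different parts of their reads. The part of such losses in the order of the a and b genes was not tested.

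By mean level the order was Mir181d, Mir181c, Mir181b-2, Mir181a-1, Mir181a-2 and Mir181b-1. The ranges over the 2 libraries separated Mir181b-2 from Mir181a-1, which it exceeded 3.37-fold in replicate 1 and 8.62-fold in replicate 2. They also separated Mir181a-1 from Mir181a-2, by 4.34-fold and 16.2-fold. The other 3 neighbouring steps had overlapping ranges, namely Mir181d and Mir181c, Mir181c and Mir181b-2, and Mir181a-2 and Mir181b-1.

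The 2 genes of a copied pair were unequal. Mir181b-2 averaged 41.8 times Mir181b-1 (38.8 times in replicate 1 and 43.4 times in replicate 2). Mir181a-1 averaged 6.52 times Mir181a-2, a value that varied widely between 4.34 in replicate 1 and 16.2 in replicate 2. Among the 18 pairs of genes with a common mature sequence whose lower gene averaged at least 10 CPM, the Mir181b pair had the widest ratio and the median was 3.32. Wider ratios were found where the lower gene was under that floor, as for Mir199a-1 with Mir199a-2 (139) and Mir194-1 with Mir194-2 (85.1). These ratios compare the reads that could be told apart. Of the 1018 genes with both a mature RefSeq sequence and a row in the tables, 92 had a mature sequence in common with another gene, and the 4 such sets with the highest summed mean CPM were Mir92-1 with Mir92-2 (2285 CPM), Mirlet7f-1 with Mirlet7f-2 (1736 CPM), Mir16-1 with Mir16-2 (1285 CPM) and Mirlet7c-1 with Mirlet7c-2 (1155 CPM). The Mir181b pair, at 1047 CPM, came next in rank 5 of 50 sets, and the Mir181a pair, at 205 CPM, had rank 11. The sets from rank 32 on had 0 CPM, and some genes belong to several sets. Among the genes at 10 CPM or more in both libraries, the median of the mean CPM was 112 over 38 such genes and 421 over 237 genes with no shared mature sequence. Over all genes the order was the reverse, with a median of 6.40 CPM over the 92 genes and 0.526 CPM over the 926 with none shared. Which kind was higher thus depended on the floor.

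The 2 libraries were then compared gene by gene with an exact conditional binomial test, two-sided, using TMM-scaled library sizes and Benjamini-Hochberg adjustment over all 329 genes that reached 10 CPM in 1 library or both. The test sets the libraries against counting error alone and does not compare conditions. At an adjusted p below 0.05, 74.2% of the 329 genes differed, with 36.5% higher in replicate 1 and 37.7% lower there. All 6 miR-181 genes were tested and all 6 differed, 3 higher and 3 lower in replicate 1. Against so high a background, this count is no result about the family. Mir181a-2 reached 10 CPM in replicate 1 alone, which fixed its direction, and the other 5 genes reached it in both. The median absolute log2 ratio was 0.98 over the 6 genes and 0.49 over all 329.

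The 2 genes of each cluster had opposite directions. Among the a and c genes, Mir181c had a log2 ratio of replicate 1 over replicate 2 of 0.71 (exact 95% interval 0.64 to 0.77), Mir181a-1 of 0.21 (0.016 to 0.40) and Mir181a-2 of 2.01 (1.51 to 2.74). The b and d genes were lower in replicate 1, with a log2 ratio of -1.02 for Mir181d (-1.10 to -0.95), -1.14 for Mir181b-2 (-1.23 to -1.06) and -0.94 for Mir181b-1 (-1.59 to -0.41). Mir181a-1 passed narrowly, with an adjusted p of 0.0441 by the exact test, and it did not pass with DESeq2 size factors or with no floor (adjusted p = 0.0957 in both). The floor fixed the direction of Mir181a-2 among the genes tested, but its call stood with no floor (log2 ratio 2.01, adjusted p = 1.2e-13 by the exact test). Mir181c kept its call under every setting tried. Whether direction goes with sequence type was not tested.

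**Figure D3:**
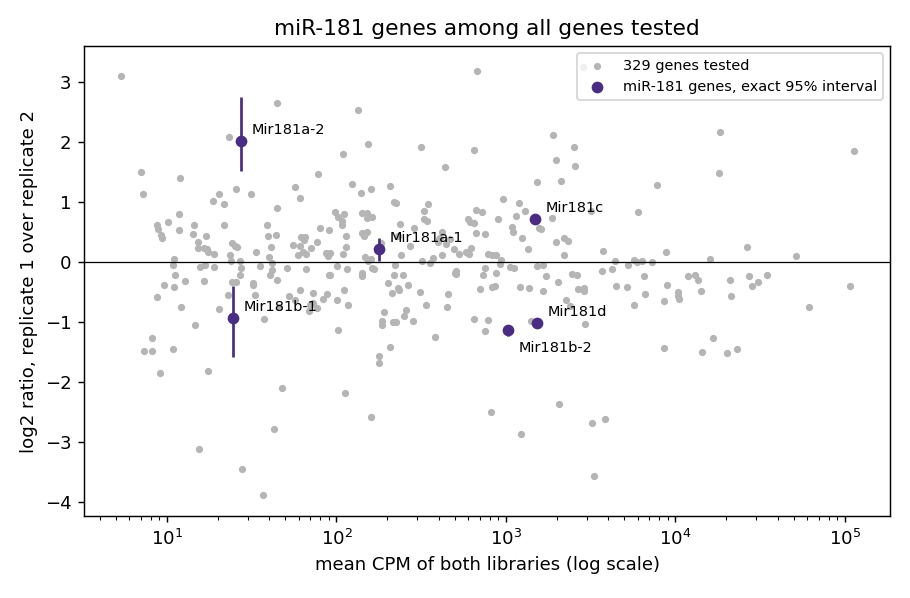
Log2 ratio of replicate 1 over replicate 2 (y axis, TMM-scaled CPM plus 1) against mean CPM (x axis, log scale) for the 329 genes tested in grey and the 6 miR-181 genes in purple, with exact 95% intervals computed without the added 1 CPM. Mir181c lies at 0.71, Mir181a-1 at 0.21 and Mir181a-2, which reached 10 CPM in replicate 1 alone, at 2.01, and the b and d genes lie between -1.14 and -0.94.

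Set among all genes tested, the differences ranged from small to large. The largest was that of Mir181a-2, which reached 10 CPM in replicate 1 alone. A larger absolute log2 ratio was seen in 6.38% of the 329 genes for Mir181a-2, 18.2% for Mir181b-2, 21.3% for Mir181d, 25.8% for Mir181b-1, 36.8% for Mir181c and 78.1% for Mir181a-1. The summed clusters moved less than their members on chromosomes 1 and 8. Replicate 1 had 0.925 times the summed CPM of replicate 2 on chromosome 8 and 1.08 times on chromosome 1, where opposite differences of the 2 genes offset each other. On chromosome 2, where most reads were from Mir181b-2, it had 0.496 times.

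A ratio of 2 neighbouring genes within a library does not depend on library size. Mir181d had 0.550 reads for each read of Mir181c in replicate 1 and 1.82 in replicate 2, a log2 shift of -1.73 (exact 95% interval -1.83 to -1.63). Mir181b-2 had 14.7 reads for each read of Mir181a-2 in replicate 1 and 139.8 in replicate 2, a log2 shift of -3.25 (-3.89 to -2.65). Mir181b-1 had 0.0870 reads for each read of Mir181a-1 in replicate 1 and 0.198 in replicate 2, a log2 shift of -1.19 (-1.83 to -0.58). The d gene on chromosome 8 and the b gene on chromosome 1 took a smaller part of their cluster's reads in replicate 1. The same order on chromosome 2 rests on Mir181a-2, which entered through replicate 1 alone, and is a description.

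As shares, Mir181d made up 35.5% of the reads of its cluster in replicate 1 and 64.6% in replicate 2, with exact 95% intervals of 34.2 to 36.7% and 63.6 to 65.5%. Mir181b-2 made up 93.6% (92.2 to 94.8%) and 99.3% (99.0 to 99.5%), and Mir181b-1 8.00% (5.60 to 11.0%) and 16.6% (13.7 to 19.7%). The intervals of the 2 libraries did not overlap in any of the 3 clusters, and they cover counting error only.

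**Figure D4:**
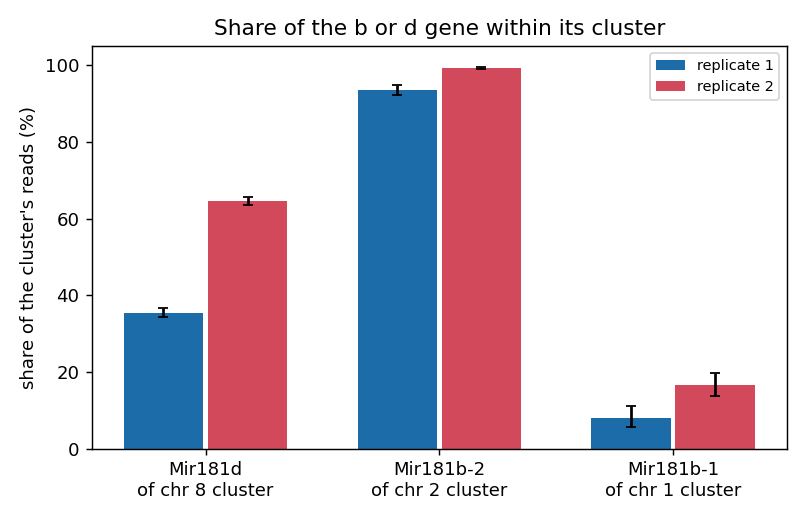
Share of the cluster's reads (y axis, percent) taken by Mir181d, Mir181b-2 and Mir181b-1 in replicates 1 and 2, with exact 95% intervals for counting error. The share is lower in replicate 1 in each cluster, at 35.5% against 64.6% for Mir181d.

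Shifts of this kind were common among neighbouring microRNA genes. Of 112 pairs of neighbouring tested genes on the same strand less than 10 kb apart, 33.9% had a ratio that shifted by at least 1 log2 unit between the libraries, with a median shift of 0.77. All 3 miR-181 pairs were past 1 log2 unit, the chromosome 2 pair with a gene that passed the floor in replicate 1 alone. The chromosome 2 pair, with a shift of 3.15 on TMM-scaled CPM plus 1, had rank 4 of the 112, the chromosome 8 pair (1.73) rank 16 and the chromosome 1 pair (1.15) rank 31. This comparison was chosen after the values were seen, and pairs that have a gene in common are not independent.

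**Figure D5:**
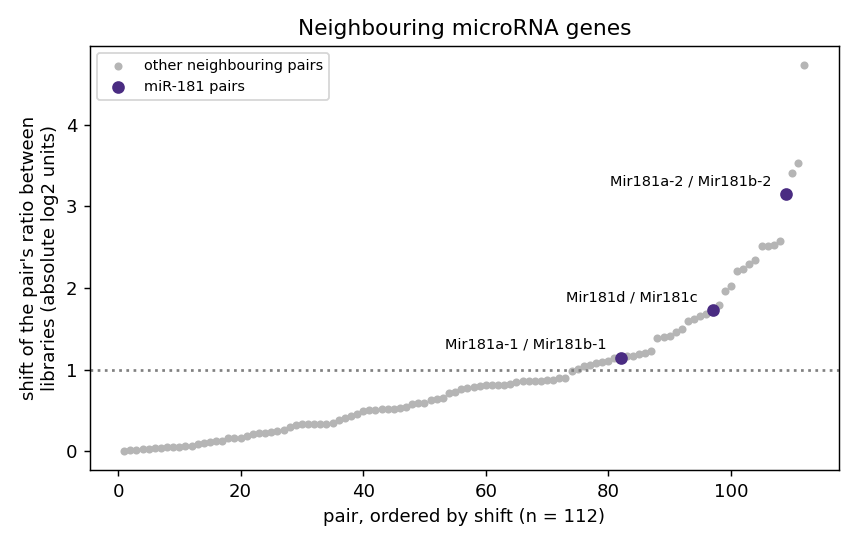
Absolute shift of the ratio of 2 neighbouring genes between the libraries (y axis, log2 units) for 112 pairs ordered by size (x axis), with the 3 miR-181 pairs in purple and the dotted line at 1 log2 unit. The chromosome 2 pair has rank 4, the chromosome 8 pair rank 16 and the chromosome 1 pair rank 31.

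MicroRNAs of cell types in which miR-181 is known were compared between the same libraries. Of 8 leukocyte microRNAs, 7 were tested, of which 6 were lower and 1 was higher in replicate 1 (median log2 ratio -0.99, against 0.0052 over all 329 genes, of which 37.7% were lower and 36.5% higher). Their summed level was 8580 CPM in replicate 1 against 17722 CPM in replicate 2. Mir21a alone, which is not particular to leukocytes, supplied 4685 and 12350 CPM of these sums. Mir342, a leukocyte microRNA, stood at 967 and 1857 CPM, Mir142 of blood cells at 471 and 1023 CPM, Mir223 of myeloid cells at 91.4 and 265 CPM and Mir150 of mature lymphocytes at 721 and 933 CPM. Mir155 of activated immune cells stood at 204 and 231 CPM and Mir21a, which many cell types express, at 4685 and 12350 CPM. Mir146, a feedback regulator of inflammatory signalling, was the higher one at 1441 and 1060 CPM, and Mir146b had 0 and 4.67 CPM. Mir181b-1, Mir181b-2 and Mir181d were lower in replicate 1 as most of this list was, and Mir181a-1, Mir181a-2 and Mir181c were not. The part of leukocyte content in these differences was not tested.

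Endothelial Mir126a reached 177728 CPM (replicate 1) and 47927 CPM (replicate 2), and Mir126b 3.95 and 1.56 CPM. Mir126a was higher in replicate 1, as Mir181a-1, Mir181a-2 and Mir181c were. Mir181d and the 2 genes of miR-181b, the member named above for endothelial cells, were lower there. Some microRNAs of other tissues were also higher in replicate 1. In replicates 1 and 2, Mir122 of liver stood at the levels given above, Mir206 of striated muscle at 11177 and 4480 CPM, Mir133b of the same tissue at 17.8 and 5.92 CPM, Mir144 of red blood cells at 246 and 60.5 CPM, Mir451a at 348 and 229 CPM and Mir202 of the gonads at 81.5 and 32.7 CPM. Smooth muscle Mir145a was lower in replicate 1, as Mir181d, Mir181b-2 and Mir181b-1 were, at 897 and 5579 CPM, and Mir143 stood at 27532 and 33734 CPM. Of 10 neuronal microRNA genes 4 were tested, of which 1, Mir128-1, was lower in replicate 1 (80.6 and 122 CPM) and 3 did not pass the test, against 74.2% passing over all 329 genes. Those 3 were Mir128-2 (18.8 and 19.3 CPM), Mir138-1 (384 and 355 CPM) and Mir138-2 (162 and 170 CPM). The other 6, the copies of Mir124a and Mir9, had at most 0.494 CPM. The copies of Mir9 share the mature sequences of both arms, so reads of these are left out of the counts too. The part of these tissues in the miR-181 differences was not tested.

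The genes nearest to each member in level were found from the distance of log2(CPM + 1) over the 2 libraries, among genes at 10 CPM or more in both. With only 2 libraries this names genes of similar level and no more. Mir181d was closest to Mir342 (967 and 1857 CPM, distance 0.15) and then to Mir134 (1174 and 1544 CPM, distance 0.43). Mir181c was closest to Mir298 (1880 and 1235 CPM, 0.16) and Mir409 (1951 and 1286 CPM, 0.23). Mir181b-2 lay nearest to Mir770 (542 and 1028 CPM, 0.51) and Mir708 (752 and 961 CPM, 0.57), and Mir181a-1 to Mir493 (206 and 160 CPM, 0.09) and Mir376b (166 and 155 CPM, 0.23). The low members had low neighbours, Mir3544 (36.6 and 14.6 CPM, 0.58) and Mir701 (28.7 and 12.2 CPM, 0.67) for Mir181a-2, and Gm23450 (18.8 and 27.1 CPM, 0.28) and Gm23935 (14.8 and 25.6 CPM, 0.36) for Mir181b-1.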

How the data were processed

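The authors deposited raw read counts per microRNA gene for each library, on genome mm10 (GRCm38) with the GENCODE M21 annotation, per the text deposited with each file. The aligner and the counting program are not stated in any source used. Each table has 3 columns of counts, and the sense-strand column was used. The 4 summary lines stayed out of totals and tests. All 2202 identifiers matched M21, which gave symbols, positions and hosts. Replicates 1 and 2 held 5278986 and 8555429 reads, of which 38.3% and 37.5% were assigned to microRNA genes.

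CPM, means with SD over the 2 libraries, exact Clopper-Pearson 95% intervals of shares and exact conditional intervals of ratios were computed. Intervals cover counting error only and treat each read as independent. No molecular identifiers are named in the sources used here, so reads copied from the same molecule could not be told apart. The intervals may therefore be too narrow. The exact conditional binomial test used TMM library sizes from edgeR 4.0.16. Simulated counts with known folds and counting error alone were also put through it. They check the calculation and not how the test behaves where libraries vary further. The p-values of the test set the difference between these libraries against counting error alone, and that difference may be technical. A chi-square statistic over the counts showed that the libraries were not the same library deposited again. A quasi-likelihood fit has no residual degrees of freedom here. Log2 ratios are replicate 1 over replicate 2 with a pseudocount of 1 CPM, which understates differences of low genes.

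Windows and mature sequences were searched in the M21 hairpins, because no genome sequence was used here. The members and lists were chosen with earlier results of these data known. Named genes were the 6 members, the lists, the 2 nearest genes in level per member and the 4 copied sets with the highest level. Alternatives were DESeq2 1.42.0 size factors, library totals, another strand column, denominator, floor and pseudocount, other window lengths, and leaving out each library. R 4.3.3, Python 3.11.15, SciPy 1.17.1, pandas 2.3.3 and Biopython 1.88 were used.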

Additional observations from a re-analysis of the deposited data

How the results depend on the processing

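Of 116 values recomputed under alternative settings, 100 were labelled unchanged, 14 moved and 2 lost the call. Unchanged meant within the SD between libraries for levels and shares, and on the same side of the threshold for log2 ratios. Some values could not change. With 2 libraries, the mean without either one always lies within the SD. The pseudocount does not enter the test, and the shares used counts identical with and without strand. Percentages of windows and numbers of genes have neither an SD between libraries nor a threshold, so 100 is no measure of stability. With all reads of the library as the denominator, the mean summed CPM was 1140 for the chromosome 8 cluster, 397 for the chromosome 2 cluster, 76.6 for the chromosome 1 cluster and 1613 for the family, and the order of the clusters was kept. Counts irrespective of strand gave 4058 CPM for the chromosome 8 cluster, 274 for the chromosome 1 cluster and 5721 for the family. The members' counts were identical in both columns, while 621695 and 667292 reads were set apart as ambiguous in replicates 1 and 2 without strand, against 0 and 0 with it. The log2 ratio of Mir181a-1 lost its call with DESeq2 size factors (0.18, adjusted p = 0.0957) and with no floor (0.21, adjusted p = 0.0957) by the exact binomial test. The other 5 members kept direction and call under every setting in which they were tested, and with a floor of 100 CPM Mir181a-2 and Mir181b-1 were not tested. Without each library in turn, the summed level ran from 2891 to 3124 CPM on chromosome 8, 696 to 1404 on chromosome 2, 194 to 210.0 on chromosome 1 and 3797 to 4722 for the family. The number of genes that differed ran from 195 of 217 genes tested (89.9%) with a floor of 100 CPM to 247 of 790 (31.3%) with no floor, against 244 of 329 (74.2%). No paired analysis was possible because the series has a single group. The counts of Mir181b-1 and Mir181a-2, at most 103 reads, limit the precision of their ratios, and the whole-genome search for windows was not run.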
